A study of Homo sapiens with 6 samples.

Results

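The nuclear genes of the last part of the mitochondrial respiratory chain were examined in PATU8988, a human pancreatic cancer cell line, after stable knockdown of CLIC1, a gene of the chloride intracellular channel family. They are 36 of the 60831 genes in the deposited table and were chosen by symbol: 9 subunits of complex III with LYRM7, cytochrome c (CYCS), 10 subunits of complex IV and 15 subunits of ATP synthase (complex V). LYRM7 and CYCS are not subunits: the first is an assembly chaperone and the second a mobile electron carrier. The control group was 3 libraries from cells with the hairpin labelled shNC, and the knockdown group was 3 libraries from cells with the hairpin labelled shCLIC1. In both groups the hairpins came from a lentiviral vector that also carries EGFP and puromycin resistance, and infected cells were kept in 5 μg/mL puromycin for 2 weeks, so all 6 libraries describe selected lines. The hairpin sequences are not stated in the labels, and whether the libraries of a group came from separate infections or from 1 is not stated either. The p-values therefore reflect only how far these 6 libraries scatter, and that scatter may be technical.

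Complex III passes electrons from ubiquinol to cytochrome c, complex IV passes them on to oxygen, and the proton gradient that both help to build drives ATP synthase. Complexes III and IV and ATP synthase each join a small core part encoded in mitochondrial DNA to many proteins encoded in the nucleus. The nuclear genes are expressed at high levels in almost every tissue. Some complex IV subunits have separate forms for heart and skeletal muscle, lung or testis. The series title names the Warburg effect, in which tumor cells ferment glucose although oxygen is available, and the comparison asks whether the respiratory genes differ in level after CLIC1 knockdown.

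The values are TPM (transcript abundances, that is reads divided by gene length and scaled to the same total in each library) and keep no sequencing depth, so the depth of the libraries is unknown. CLIC1 lay at 313, 311 and 297 TPM in control and at 219, 210 and 204 TPM in knockdown, 68.8% of control (log2 fold change −0.54, SE 0.0407, limma adjusted p = 0.00345). Of 6 epithelial and ductal markers all reached a mean of 1 TPM, with KRT7 the lowest at 1.31 to 3.13 TPM; their summed level was 9435 to 9701 TPM in control and 11207 to 11684 TPM in knockdown, mostly from KRT8 and KRT18. Of these markers EPCAM, KRT8, KRT18 and KRT19 were called higher (limma), while CDH1 had a mean of 136.5 TPM in control and 123 TPM in knockdown and did not pass (log2 fold change −0.16, adjusted p = 0.354); their part in the results on the respiratory genes was not tested. The 13 markers of blood, endothelial, fibroblast, acinar and endocrine cells summed to between 5.02 and 7.78 TPM over the 6 libraries, with PTPRC, CD3E, COL1A2, DCN, CPA1 and GCG listed at 0 in all of them. The 2 with a mean of at least 1 TPM were COL1A1 (1.62) and the acinar marker PRSS1. PRSS1 stood at 3.05, 2.84 and 3.57 TPM in control and at 4.64, 4.99 and 4.04 TPM in knockdown. Its groups did not overlap, and it did not pass (log2 fold change 0.42, limma adjusted p = 0.165). Mitochondrially encoded genes held 17.2% to 17.6% of all TPM in control and 17.1% to 18% in knockdown.

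Most of the 36 genes stayed close to their control level in knockdown. ATP5MF, a membrane subunit of ATP synthase, and LYRM7, the chaperone of the Rieske protein of complex III, fell, and 0 genes rose past the threshold. All 36 passed the level filter of a mean of 1 TPM. An adjusted p under 0.05 (limma on log2(TPM + 1), Benjamini-Hochberg over all tested genes) was reached by 2 of them, both lower. Of the 14135 tested genes 0.778% were called lower, 0.962% higher and 1.74% either way. The 36 genes were chosen with earlier results of these data known, so these shares do not test them as a set. The median log2 fold change of the 36 genes was 0.02, with 20 positive and 16 negative values, beside a median of −0.00 over all tested genes. At an unadjusted p under 0.05 there were 6 of the 36, against 15.6% of all tested genes. Control and knockdown libraries did not overlap in 9 of the 36 genes, 4 higher (CYC1, CYCS, COX7A2 and ATP5F1D) and 5 lower (LYRM7, COX5B, ATP5F1A, ATP5MF and ATP5MG) in knockdown. Over all tested genes the share was 22.3%, with 11.1% higher and 11.2% lower.

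The intervals of the genes that did not pass were narrow. In these bulk libraries fewer cells of a kind and less RNA per cell cannot be told apart, so a level is an average over all cells. Of 34 such genes, 33 had a 95% interval of the log2 fold change (from the same fit, not adjusted for the number of genes) that lay wholly between −0.3 and 0.3, that is between a fall of 18.8% and a rise of 23.1%. The exception was ATP5F1D, the delta subunit of the ATP synthase central stalk, whose interval ran from 0.19 to 0.61. The median absolute log2 fold change was 0.040 for the 36 genes, 0.107 for all tested genes and 0.083 for the 4627 tested genes from 25 TPM up to the highest of the 36, a range chosen to hold every one of them except LYRM7. The median within-group SD on the log2 scale was 0.058 for the 36 genes, 0.120 for all tested genes and 0.078 in the same range of level. Of the 36 genes, 30 had a mean of at least 100 TPM, so that range reaches below most of them. The part of level in these medians was not tested.

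**Figure D1:**
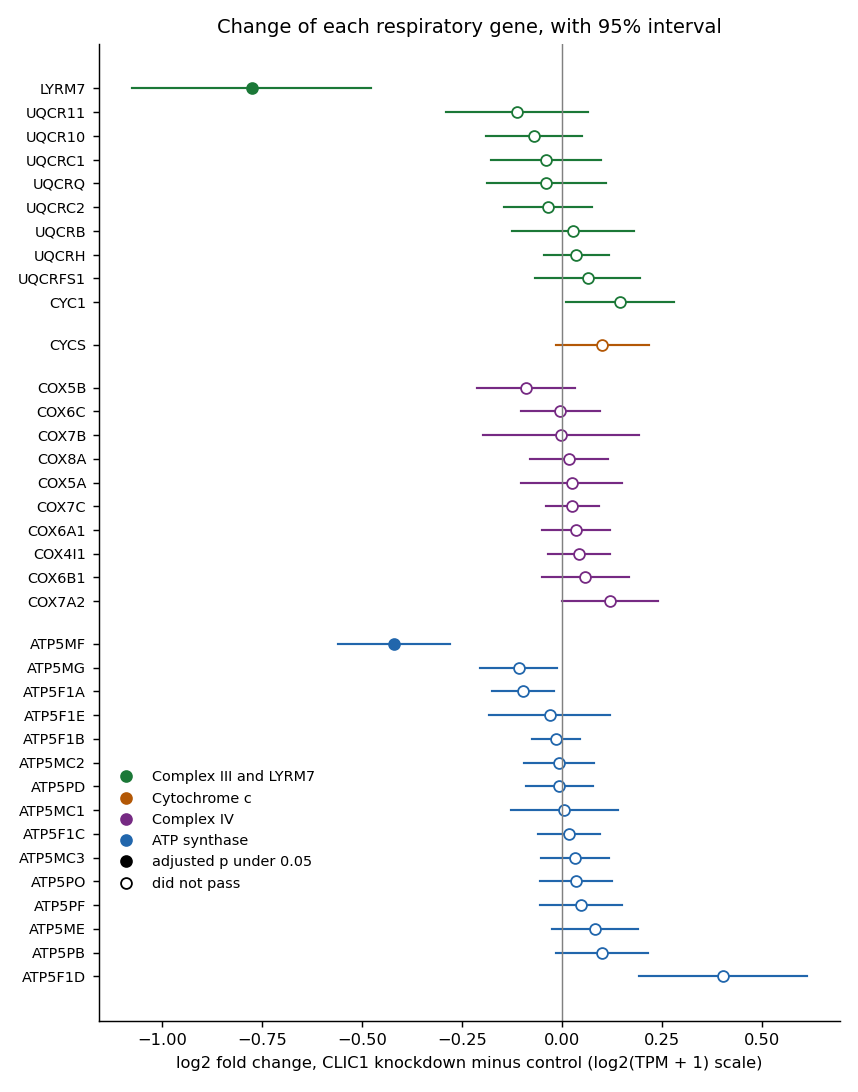
Log2 fold change (knockdown minus control, log2(TPM + 1) scale, x axis) of each of the 36 genes, grouped by complex; lines are 95% intervals of the limma fit, filled circles passed the test and open circles did not. ATP5MF at −0.42 and LYRM7 at −0.78 are the filled circles, and ATP5F1D at 0.40 is the open circle farthest to the right.

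The largest fall on the log2 scale was that of LYRM7, which is grouped here with complex III but is not a subunit of it. LYRM7 binds the Rieske iron-sulfur protein UQCRFS1 in the matrix and stabilizes it until it is inserted as the last catalytic subunit. Its level was 6.57, 8.98 and 7.27 TPM in the control libraries and 3.87, 4.34 and 3.79 TPM in the knockdown libraries. All knockdown values lay below all control values, and the control libraries spread more than the knockdown ones. The means were 7.61 ± 1.24 TPM (SD, n = 3) and 4 ± 0.297 TPM, so that 52.6% of the control level was left (log2 fold change −0.78, SE 0.127, limma adjusted p = 0.0344). It was the lowest of the 36 genes in level, and the scale with a pseudocount of 1 understates its change: with a pseudocount of 0.1 the log2 fold change was −0.90 (adjusted p = 0.0287). The call was lost in 10 of 14 other settings, among them the fits without any one library, with log2 fold changes from −0.86 to −0.66 and adjusted p from 0.0768 to 0.134. UQCRFS1, the protein that LYRM7 serves, lay at 43.6, 42.8 and 42.4 TPM in control and at 42.3, 45.7 and 46.9 TPM in knockdown, and these groups overlapped (log2 fold change 0.06, SE 0.0559, adjusted p = 0.638).

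LYRM7 (ENSG00000186687) lies on the plus strand of chromosome 5, chr5:131170810-131205426 in GRCh38 (GENCODE release 29), and most of its transcript is 3′ UTR. An earlier scan of these data had singled out the 7 bases GTGCTGA as frequent in the 3′ UTRs of genes lower in knockdown, so the motif was looked up here in the respiratory genes as a description only. It was found, on the transcript strand, in at least 1 annotated transcript of 4 of the 36 genes (11.1%), and in 14.3% of the 11627 tested genes with a 3′ UTR to search. Among all such genes it was in 50.5% of the 97 called lower and in 3.88% of the 129 called higher. The motif was picked from these same data, so these shares do not test it. The 4 genes were LYRM7, COX7C, UQCRC2 and UQCRB, of which LYRM7 alone passed the test; the log2 fold changes of the others were 0.03, −0.03 and 0.03. ATP5MF does not carry these letters in the 3′ UTRs searched. The sites of 3 of the genes are shown with their flanks so that the called gene can be set beside uncalled ones, written 5′ to 3′ on the transcript strand as DNA with the 7 bases in capitals; all lie on the plus strand (chr5:131200745-131200773, chr5:86620269-86620297 and chr16:21983387-21983415, GRCh38, read from GENCODE transcripts).
LYRM7: actatataaatGTGCTGActtacagttat
COX7C: aattaccagtgGTGCTGAggttgagaagc
UQCRC2: gtatttattatGTGCTGAtatctttgttt
The 7 bases start at base 1155 of a 3′ UTR of 5825 bases in LYRM7, at base 811 of 1292 in COX7C and at base 227 of 489 in UQCRC2. COX7C, a small complex IV subunit, lay at 542, 549 and 550.2 TPM in control and at 545, 567 and 558 TPM in knockdown. UQCRC2 lay at 171, 166 and 173 TPM in control and at 164, 175 and 158 TPM in knockdown, so the groups overlapped in both of these genes.

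The 9 subunits of complex III itself had 0 genes past the threshold and 1 below an unadjusted p of 0.05, with 4 positive and 5 negative log2 fold changes and a median of −0.03. CYC1, cytochrome c1, which hands electrons to cytochrome c, stood at 233, 258 and 261 TPM in control and at 278, 263 and 291 TPM in knockdown. The groups did not overlap, but the gap between the highest control and the lowest knockdown library was small beside the spread within either group (log2 fold change 0.15, SE 0.0577, adjusted p = 0.284). UQCR11, a small subunit at the edge of the complex, stood at 25.5, 27.2 and 25.4 TPM in control and at 23.2, 26.4 and 22.6 TPM in knockdown (−0.11, SE 0.0762, adjusted p = 0.539). UQCR10, another small subunit, stood at 110, 110 and 105 TPM in control and at 96.7, 106 and 106 TPM in knockdown (−0.07, SE 0.0511, adjusted p = 0.565). Both had overlapping groups. UQCRH, the acidic hinge protein near the cytochrome c binding site, had the highest level of the complex, at 522, 518 and 507 TPM in control and 550, 519 and 517 TPM in knockdown (0.04, SE 0.0345, adjusted p = 0.671). The core proteins UQCRC1 and UQCRC2 had log2 fold changes of −0.04 and −0.03, and the small subunits UQCRB and UQCRQ 0.03 and −0.04.

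By level, the order in complex III was UQCRH (a mean of 522 TPM over the 6 libraries), CYC1 (264), UQCRC1 (231), UQCRB (203), UQCRQ (188), UQCRC2 (168), UQCR10 (106), UQCRFS1 (44.0), UQCR11 (25.1) and LYRM7 (5.80). From CYC1 down to UQCRC2 each gene overlapped with the next in the order over the 6 libraries, and the other neighbours did not overlap. TPM divides reads by gene length, so this order and those in complex IV and ATP synthase also depend on the lengths used. The listed length was 674 bases for UQCRH, 6219 for LYRM7, 2444 for COX7B and 3610 for ATP5F1E. The part of length in the orders was not tested. The 10 genes of complex III with LYRM7 together summed to 1747 ± 8.01 TPM in control (SD, n = 3) and to 1767 ± 22.0 TPM in knockdown, a change of 1.15%. The change was 0.689% without knockdown replicate 1 and 1.87% without knockdown replicate 2. Their partner from mitochondrial DNA, MT-CYB (cytochrome b), lay at 803, 851 and 893 TPM in control and at 984, 1151 and 1192 TPM in knockdown, non-overlapping groups that did not pass (log2 fold change 0.38, SE 0.0746, adjusted p = 0.0603). The ratio of MT-CYB to CYC1 was 3.45, 3.30 and 3.42 in control and 3.54, 4.37 and 4.10 in knockdown.

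Cytochrome c, which carries electrons from complex III to complex IV and starts the caspase cascade when it leaves mitochondria, was slightly higher without passing the test. CYCS stood at 94.2, 95.8 and 98.5 TPM in control and at 102, 99.1 and 109 TPM in knockdown. Every knockdown library lay above every control library, by less than 1 TPM at the nearest pair. The log2 fold change was 0.10 (SE 0.05, adjusted p = 0.389), and 0.20 once trends on GC content, length and level were removed, again without passing (adjusted p = 0.0806). Without knockdown replicate 3 it was 0.06 (adjusted p = 0.496). The table lists 40 CYCS pseudogenes, whose summed level was 4.19% of that of CYCS, from 1.09 to 9.84 TPM per library. HCCS, which attaches heme to cytochrome c, did not pass either, at a log2 fold change of 0.06 (adjusted p = 0.760).

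Complex IV had 0 of 10 genes past the threshold and 0 of 10 below an unadjusted p of 0.05. The log2 fold changes ran from −0.09 to 0.12 with a median of 0.02, and 7 of 10 were positive. COX7A2, the form of subunit 7A used outside heart and skeletal muscle, had the largest positive value, at 160, 165 and 147 TPM in control and 165, 174 and 173 TPM in knockdown. Its groups lay just apart (0.12, SE 0.0511, adjusted p = 0.323). COX5B, a zinc-binding subunit on the matrix side, had the largest negative value, at 225, 229 and 223 TPM in control and 196, 220.1 and 220.4 TPM in knockdown. Its groups did not overlap, and knockdown replicate 1 lay well below the other libraries (−0.09, SE 0.0520, adjusted p = 0.460). COX6B1, which faces cytochrome c on the intermembrane side, stood at 439, 453 and 493 TPM in control and at 482, 471 and 487 TPM in knockdown (0.06, SE 0.0464, adjusted p = 0.598). COX4I1, among the first nuclear subunits to join the core, stood at 580, 583 and 556 TPM in control and at 574, 597 and 597 TPM in knockdown (0.04, SE 0.0327, adjusted p = 0.588). In both genes the groups overlapped. COX6C stood at 292, 295 and 295 TPM in control and at 277, 300 and 304 TPM in knockdown. COX7B, the lowest of the complex, stood at 38.4, 42.0 and 44.7 TPM in control and at 41.4, 38.2 and 45.4 TPM in knockdown. The log2 fold changes of these last 2 genes were both −0.00, and their sign changed in other settings.

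COX6A1, the widely expressed form of subunit 6A, was the most abundant gene of complex IV, at 705, 722 and 718 TPM in control and 734, 702 and 764 TPM in knockdown. It was followed by COX4I1 (a mean of 581 TPM over the 6 libraries), COX7C (552), COX6B1 (471), COX8A (458), COX5A (305), COX6C (294), COX5B (219), COX7A2 (164) and COX7B (41.7). Over the 6 libraries COX4I1 overlapped with COX7C, COX6B1 with COX8A and COX5A with COX6C, and the other neighbours in the order did not overlap. The tissue-restricted forms were listed at or near 0: COX4I2, COX6A2, COX7B2 and COX8C were listed at 0 in all 6 libraries, COX7A1 at 0.28 and 0.33 TPM in 1 library of each group and at 0 elsewhere, and COX6B2 at no more than 0.06 TPM. The 10 genes summed to 3772 ± 36.1 TPM in control and 3846 ± 101 TPM in knockdown, a change of 1.96%, or of 0.417% without knockdown replicate 3. The 3 subunits of complex IV from mitochondrial DNA, MT-CO1 to MT-CO3, summed to 52278 ± 384 TPM in control and 51234 ± 1180 TPM in knockdown, a change of −2.00%. Among them MT-CO1 stood at 18846, 19004.5 and 19099 TPM in control and at 18274, 17931 and 18141 TPM in knockdown, non-overlapping groups that did not pass (log2 fold change −0.07, SE 0.0155, adjusted p = 0.0881).

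**Figure D2:**
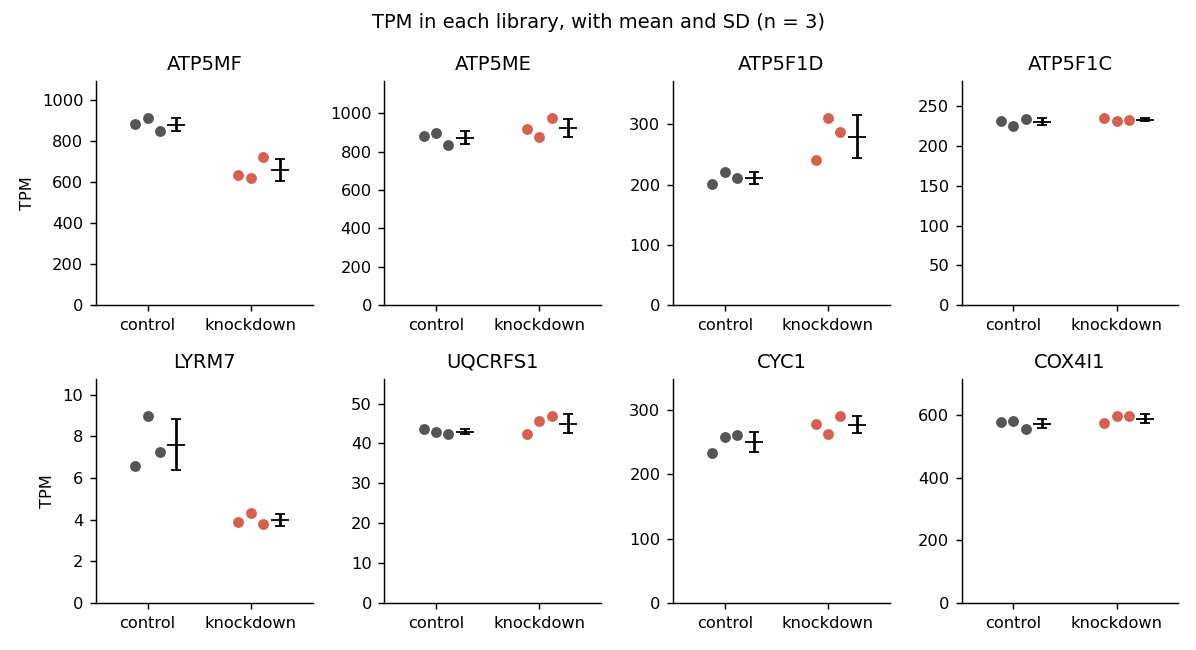
TPM (y axis, from 0) in each library of ATP5MF, ATP5ME, ATP5F1D, ATP5F1C, LYRM7, UQCRFS1, CYC1 and COX4I1; points are single libraries, and the bar beside them is the mean with SD (n = 3). ATP5MF and LYRM7 are lower in every knockdown library, ATP5F1D is higher in every one without passing the test, and ATP5ME, ATP5F1C, UQCRFS1 and COX4I1 overlap between groups.

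ATP synthase held the larger fall in TPM. ATP5MF, subunit f, sits in the membrane part beside the proton channel. It stood at 883, 912 and 848 TPM in control and at 635, 621 and 723 TPM in knockdown. The lowest control library stood more than 100 TPM above the highest knockdown library, and knockdown replicate 3 lay between the other knockdown libraries and the controls. The means were 881 ± 31.8 TPM (SD, n = 3) and 660 ± 55.1 TPM, 74.9% of control (log2 fold change −0.42, SE 0.0601, limma adjusted p = 0.0228). The call held in 5 of 14 other settings and was lost in 9, among them the fits without any one library other than knockdown replicate 3. Without knockdown replicate 3 the log2 fold change was −0.49 (adjusted p = 0.0133), and over all settings it ran from −0.49 to −0.38 with adjusted p from 0.00399 to 0.134.

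ATP5MF (ENSG00000241468) lies on the minus strand of chromosome 7, chr7:99448475-99466331 in GRCh38. A read-through gene, ATP5MF-PTCD1, shares 177 of the 2275 annotated exon bases of ATP5MF. It stood at 4.75, 6.15 and 2.19 TPM in control and at 7.45, 5.72 and 5.60 TPM in knockdown, and PTCD1 at 10.4, 11.5 and 11.7 TPM and at 10.4, 10.9 and 10.3 TPM. The part of these genes in the fall of ATP5MF was not tested. The 5 ATP5MF pseudogenes in the table were listed at 0 in every library. ATP5ME, subunit e, which sits in the same membrane region, had the highest mean of the 36 genes in knockdown, where ATP5MF had it in control, and did not pass the test, at 884, 899 and 835 TPM in control and 919.7, 879 and 973 TPM in knockdown, with overlapping groups (log2 fold change 0.08, SE 0.0458, adjusted p = 0.449). The ratio of ATP5MF to ATP5ME was close to 1 in control (0.998, 1.01 and 1.02) and lower in every knockdown library (0.690, 0.706 and 0.742). MYL5, on the opposite strand, covers 61.6% of the annotated exon bases of ATP5ME and averaged 14.6 TPM, so reads of the pair could be mixed where strand was not used.

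ATP5MG, subunit g, the partner of subunit e in ATP synthase dimers, stood at 127, 131 and 125 TPM in control and at 116, 117 and 122 TPM in knockdown. Its groups did not overlap (log2 fold change −0.11, SE 0.0406, adjusted p = 0.258). The ratio of ATP5MF to ATP5MG was 6.95, 6.97 and 6.78 in control and 5.48, 5.29 and 5.93 in knockdown. Of the c-ring genes, ATP5MC1, ATP5MC2 and ATP5MC3 encode the same mature subunit c with different import sequences. Their log2 fold changes were 0.01, −0.01 and 0.03, and their mean levels over the 6 libraries 212.5, 181 and 307 TPM. In the peripheral stalk, ATP5PB (subunit b) stood at 146, 153 and 140 TPM in control and at 149.9, 158 and 163 TPM in knockdown (0.10, SE 0.0491, adjusted p = 0.384). ATP5PO, ATP5PD and ATP5PF of the same stalk had log2 fold changes of 0.04, −0.01 and 0.05.

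In the catalytic head, ATP5F1A (subunit alpha) stood at 507, 483 and 493 TPM in control and at 459, 474 and 453 TPM in knockdown. Every knockdown library was lower, and the gene did not pass the test (log2 fold change −0.10, SE 0.0334, adjusted p = 0.214). ATP5F1B, the catalytic subunit beta, stood at 699, 693 and 709 TPM in control and at 698, 693 and 688 TPM in knockdown, a log2 fold change of −0.02 with an interval from −0.08 to 0.05. The delta subunit ATP5F1D stood apart from both. It stood at 200.5, 220.3 and 210.4 TPM in control and at 241, 309.8 and 288 TPM in knockdown, with means of 210.4 ± 9.94 and 279.6 ± 35.0 TPM (SD, n = 3). Knockdown replicate 1 lay close to the controls and the other knockdown libraries far above them. The log2 fold change was 0.40 (SE 0.0895, adjusted p = 0.0842), and without knockdown replicate 1 it was 0.50 and passed (adjusted p = 0.0321). Of its neighbours in the central stalk, which both overlapped between groups, ATP5F1C (gamma) stood at 232, 225 and 234 TPM in control and 234, 231 and 233 TPM in knockdown, and ATP5F1E (epsilon), the lowest of the complex, at 33.8, 31.3 and 32.6 TPM and at 29.7, 32.8 and 33.0 TPM. The ratio of ATP5F1D to ATP5F1C was 0.865, 0.979 and 0.900 in control and 1.03, 1.34 and 1.24 in knockdown.

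The order of the ATP synthase genes by level differed between the groups and is given for each. In control ATP5MF (a mean of 881 TPM) and ATP5ME (873) came first and overlapped, followed by ATP5F1B (700.3), ATP5F1A (494), ATP5MC3 (303), ATP5PO (295), ATP5PD (279), ATP5F1C (230.2), ATP5MC1 (212), ATP5F1D (210.4), ATP5PF (191), ATP5MC2 (182), ATP5PB (146), ATP5MG (128) and ATP5F1E (32.5). In knockdown ATP5ME (924) stood alone at the top, ATP5MF (660) came after ATP5F1B (693) and overlapped with it, and ATP5F1D (279.6) lay between ATP5PO (302) and ATP5PD (277.5), overlapping with both. The remaining genes kept the control order. Among them, ATP5MC3 overlapped with ATP5PO in both groups, ATP5PO with ATP5PD and ATP5PF with ATP5MC2 in control, and ATP5MC1 with ATP5F1D in control and with ATP5PF in knockdown.

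The 15 ATP synthase genes had 1 lower and 0 higher past the threshold, 8 positive and 7 negative values and a median of 0.01. They summed to 5157 ± 64.6 TPM in control and 5039 ± 123 TPM in knockdown, a change of −2.30%. The change was −3.67% without knockdown replicate 3 and −1.13% with trends on GC content, length and level removed. Without ATP5MF the other 14 summed to 4276 ± 32.8 TPM in control and 4379 ± 67.9 TPM in knockdown, a change of 2.41%, so the sign of the sum rested on that gene. The subunits from mitochondrial DNA, MT-ATP6 and MT-ATP8, summed to 53786 ± 1040 TPM in control and 57527 ± 3390 TPM in knockdown, with overlapping libraries. These genes overlap on mitochondrial DNA, so the split of reads between them is uncertain. All 36 nuclear genes together summed to 10773 ± 82.7 TPM in control and 10756 ± 237 TPM in knockdown, and held 1.08% of all TPM.

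**Figure D3:**
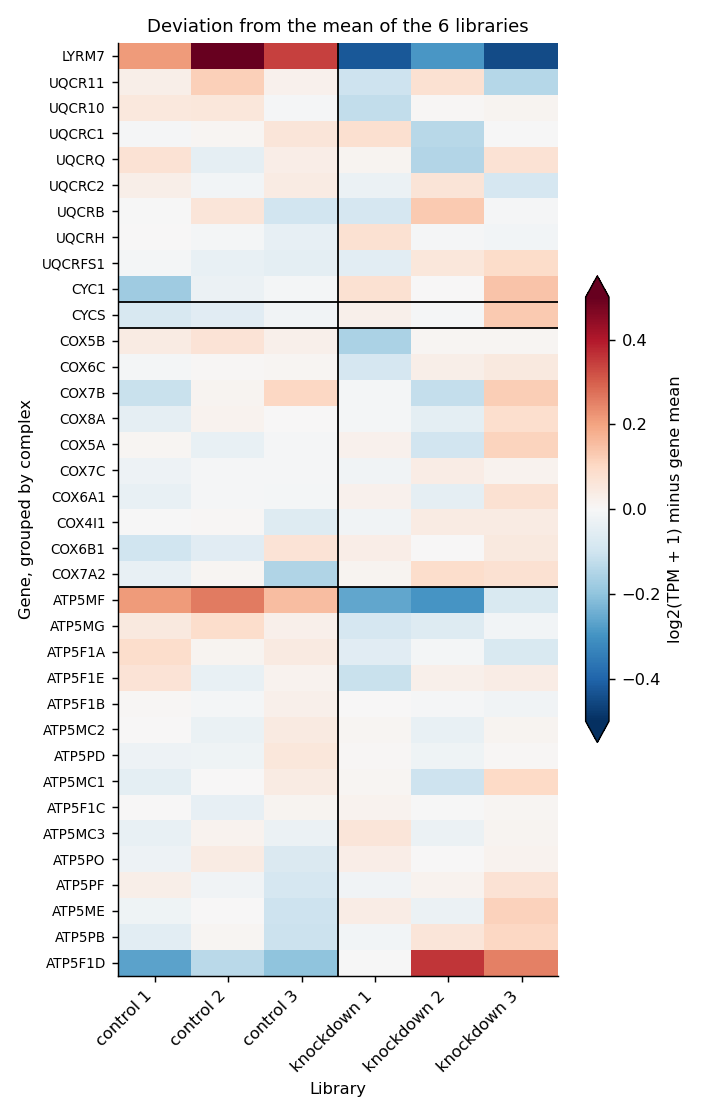
Deviation of log2(TPM + 1) from the mean of the 6 libraries (colour, drawn from −0.5 to 0.5) for each of the 36 genes (rows, grouped by complex and ordered by change) in each library (columns). ATP5MF, LYRM7 and ATP5F1D separate the groups by colour, while most rows are near white; knockdown replicate 3 is the highest library for 12 of the 36 genes.

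Among libraries, knockdown replicate 3 had the most high values: it was the highest library for 12 of the 36 genes, and the other libraries were the highest for 3 to 7 each. The median deviation of the 36 genes from their 6-library mean was 0.03 on the log2 scale in knockdown replicate 3 and between −0.01 and 0.01 in the other 5. Over all tested genes knockdown replicate 3 deviated the other way, with a median of −0.05. Knockdown replicate 2 was the lowest library for 9 of the 36 genes and control replicate 3 for 8. Without knockdown replicate 3 the complex IV median moved from 0.02 to −0.01 and the ATP synthase median from 0.01 to −0.01. The latter was also negative, at −0.005, without control replicate 1.

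**Figure D4:**
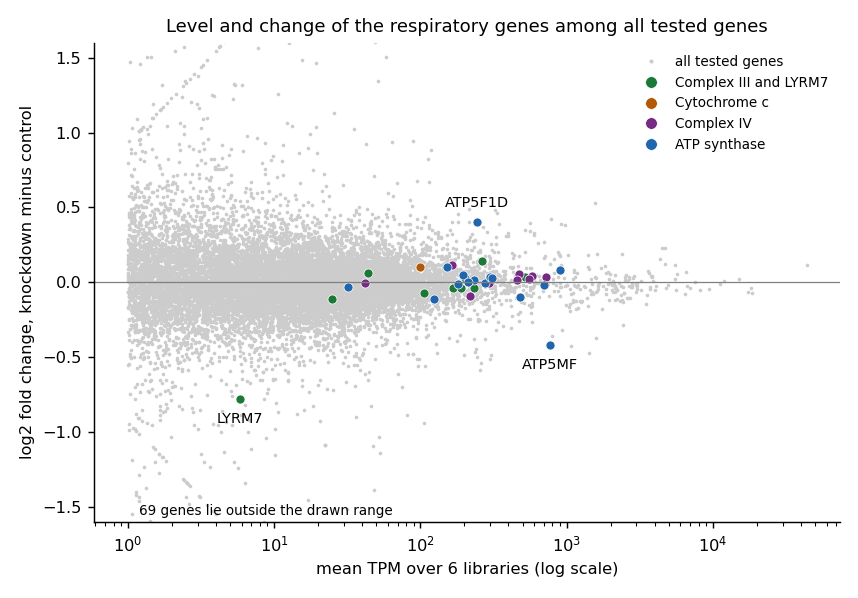
Mean TPM over the 6 libraries (x axis, log scale) against log2 fold change (knockdown minus control, y axis) for all 14135 tested genes (grey) and the 36 respiratory genes (coloured by complex); 69 genes lie beyond the drawn range of 1.6 in either direction. Of the 36 genes, 30 have a mean of at least 100 TPM and lie near 0 on the y axis, apart from ATP5MF below and ATP5F1D above, and LYRM7 lies lower and to the left.

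The genes that assemble, regulate or accompany these complexes had 0 calls in either direction. Over all tested genes 1.74% were called either way and 15.6% lay below an unadjusted p of 0.05 (limma). At such shares lists of this size would hold few calls, if any. Of 14 other subunits and isoforms, 6 were tested and 0 passed (median −0.09, 2 below an unadjusted p of 0.05), and UQCRHL and ATP5MGL were among those under the filter. ATP5MK, a small ATP synthase membrane subunit listed in the table as ATP5MD, had the smallest p, at 434, 437 and 464 TPM in control and 473, 527 and 509 TPM in knockdown, non-overlapping groups (log2 fold change 0.18, SE 0.0485, adjusted p = 0.138). DMAC2L, also known as factor B, stood at 11.8, 9.74 and 10.1 TPM in control and at 6.6, 9.57 and 6.33 TPM in knockdown (−0.46, SE 0.155, adjusted p = 0.212). ATP5IF1, which inhibits the enzyme when it runs backwards, had a log2 fold change of 0.05, and COX7A2L, which joins complexes III and IV into supercomplexes, −0.20 (adjusted p = 0.490).

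Assembly factors of complex III had 0 of 9 past the threshold (median −0.02, 0 below an unadjusted p of 0.05), with TTC19 at 0.15 (adjusted p = 0.423) and UQCC5, listed as SMIM4, at −0.46 (SE 0.287, adjusted p = 0.5). Those of complex IV had 0 of 27 (median −0.03, 5 below an unadjusted p of 0.05). SURF1, needed to build the heme center of MT-CO1, stood at 39.9, 44.4 and 42.9 TPM in control and at 48.1, 49.8 and 49.3 TPM in knockdown, groups that did not overlap (0.21, SE 0.0561, adjusted p = 0.133). HIGD1A, which binds complex IV under low oxygen, stood at 144, 138 and 143 TPM in control and at 156, 158 and 150 TPM in knockdown (0.13, SE 0.0400, adjusted p = 0.186). Those of ATP synthase had 0 of 5 (median 0.02, 0 below an unadjusted p of 0.05), with ATPAF1 at 0.06 and FMC1 at −0.10. Regulators of respiratory genes had 0 of 12 (median −0.02, 1 below an unadjusted p of 0.05), and PPARGC1A was under the filter at 0.17 to 0.87 TPM. GABPA, an ETS factor that binds many respiratory promoters, stood at 12.6, 11.2 and 13.3 TPM in control and at 10.2, 10.3 and 8.61 TPM in knockdown (−0.32, SE 0.101, adjusted p = 0.183). YY1 had a log2 fold change of 0.10 (adjusted p = 0.470). GABPA lies opposite ATP5PF and shares 20.2% of the annotated exon bases of that gene, so their reads could be mixed where strand was not used.

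For comparison, 0 of 37 nuclear subunits of complex I passed (median 0.02), where 1.74% of all tested genes were called. An unadjusted p under 0.05 was reached by 9 of the 37, against 15.6% of all tested genes. NDUFA13 and NDUFS8 had the smallest p, at log2 fold changes of 0.16 and 0.17 (limma adjusted p = 0.0799 and 0.0832). In complex II 0 of 4 passed (median −0.00, 0 below an unadjusted p of 0.05), with SDHD at −0.12 and SDHA at 0.05. Libraries did not overlap in 12 of the 37 complex I genes (32.4%), in 4 of the 15 ATP synthase genes (26.7%), in 2 of 10 genes in complexes III with LYRM7 and IV each (20.0%), and in 22.3% of all tested genes.

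The 36 genes lie on 20 chromosomes. Of them, 29 had a promoter window in the RefSeq table (GRCh38.p14, 250 bases before to 50 after the start), and 4 fixed motifs were searched on both strands. The ETS letters CCGGAAGT, of the kind GABPA binds, were in 9 of the 29 genes (31%) and in 4.95% of all 27305 genes with a window. TGCGCA, part of the site of the factor NRF1, was in 7 of 29 (24.1%) against 9.76%, the longer NRF1 core in 1 of 29 (3.45%) against 1.52%, and a YY1 motif in 2 of 29 (6.90%) against 1.46%. TGCGCA and the NRF1 core can overlap. The 27305 genes were not limited to those tested here, whereas all of the 29 were tested, so the shares come from unlike sets. Shares among the tested genes alone were not computed. The genes with the ETS letters included LYRM7, which was called, and COX5B, UQCRH, UQCR11, UQCRQ, COX8A, ATP5F1A, ATP5PD and ATP5PF, which were not. ATP5MF, the other called gene, and ATP5F1D had no window and were not searched for any of the motifs. The windows of LYRM7 and COX5B are shown as a called and an uncalled gene that hold the same motif, 5′ to 3′ on the gene's strand with motif matches in capitals (chr5:131170694-131170993 and chr2:97645812-97646111, both plus strand).
LYRM7: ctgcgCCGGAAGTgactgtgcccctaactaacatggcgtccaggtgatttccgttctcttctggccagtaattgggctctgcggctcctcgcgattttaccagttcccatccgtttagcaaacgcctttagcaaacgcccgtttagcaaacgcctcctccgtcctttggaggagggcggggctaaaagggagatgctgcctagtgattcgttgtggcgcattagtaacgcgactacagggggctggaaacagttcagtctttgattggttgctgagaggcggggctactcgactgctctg
COX5B: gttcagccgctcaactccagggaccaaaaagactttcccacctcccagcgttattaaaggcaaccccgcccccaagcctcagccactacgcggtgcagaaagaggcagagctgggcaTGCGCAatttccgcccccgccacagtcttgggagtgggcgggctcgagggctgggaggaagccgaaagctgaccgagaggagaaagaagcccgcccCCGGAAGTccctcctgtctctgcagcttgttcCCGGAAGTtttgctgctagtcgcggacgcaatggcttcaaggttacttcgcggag
In LYRM7 the ETS letters begin 245 bases before the RefSeq start. In COX5B they begin 37 and 5 bases before it, and TGCGCA begins 133 bases before it. A match of letters is a description and does not show binding.

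Several of the 36 genes have close copies or neighbours that could take or lend reads. The table lists 134 pseudogenes named after 25 of the genes, of which 109 were at 0 in all libraries. UQCRFS1 was the 1 gene whose pseudogenes exceeded 5% of its own level: they summed to 23.7% of it, all in UQCRFS1P1 at 12.02, 9.39 and 10.1 TPM in control and 10.8, 9.25 and 11.1 TPM in knockdown. For 8 genes, exons on the opposite strand belonged to another gene at 1 TPM or more (ATP5F1A, ATP5ME, ATP5MG, ATP5PB, ATP5PD, ATP5PF, ATP5PO and COX4I1). The shared exon bases were only 3 in ATP5F1A and 4 in COX4I1, and from 261 (ATP5MG) to 579 (ATP5ME) in the others. LYRM7 and ATP5MF were not among the 8 genes: HINT1 and CPSF4 lie opposite them with 0 shared exon bases.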

How the data were processed

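Total RNA of 6 PATU8988 libraries (3 control, 3 CLIC1 knockdown, named by their titles) was sequenced. The authors deposited 1 table of TPM with 2 decimals for 60831 genes; 1 line was empty and each library summed to between 999988 and 999992. The tools named are fastp, HISAT, RSEM and edgeR and the build is GRCh38, per the submitters' processing notes; their versions, the annotation, filters and strand setting: not given in the sources used here. TPM keeps no depth, so the precision from counting is unknown and no count model was fitted. The authors' group means, within 3.33e-05 TPM of the means of the libraries, were not used.

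Control columns end in NC and the replicate number of a control title; the remaining columns end in S and a number, a letter the titles do not explain, and were taken as knockdown because no other group is left. Values were tested as log2(TPM + 1), with a mean of at least 1 TPM over 6 libraries (14135 genes), in limma 3.58.1 (R 4.3.3) allowing for a mean-variance trend, with no covariate, two-sided, Benjamini-Hochberg adjustment over all tested genes and a threshold of 0.05. Intervals of 95% used 7.26 moderated degrees of freedom. Sums and lists of the 36 genes were given no p. The members and lists were chosen with earlier results of these data known.

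Values in every library were given for called genes, for the 3 largest rises and falls and the highest and lowest level in complexes III, IV and V, for CYCS, and each further list was represented by its called genes or the 2 with the smallest p, some by their fold change alone; HCCS, COX7A2L, ATP5IF1, COX7C, UQCRC2, ATP5F1B, ATP5F1C and MT-ATP6 were named outside this rule. Of 170 list genes 170 matched the table. Positions, GC and 3′ UTRs (basic protein-coding transcripts) came from GENCODE release 29 and promoters from RefSeq. The test was checked on simulated data with known changes, 50 genes at each size. It recovered 36% of changes of 0.3 on the log2 scale, 74% of 0.5, 92% of 1.0 and 100% of 2.0. Of 155 calls 4 were false. Over all tested genes many changes of 0.3 would thus be missed. The changed genes were drawn from all tested genes, whose median within-group SD was 0.120, against 0.058 for the 36 genes. Recovery among the 36 genes alone was not measured. Alternatives were another pseudocount (0.1), no filter or a mean of 5 TPM, no trend, trimmed-mean rescaling, TPM without mitochondrially encoded genes, removal of GC, length and level trends by loess (span 0.3), replicate number as a term, and leaving out each library.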

Additional observations from a re-analysis of the deposited data

How the results depend on the processing

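The count of genes called over the whole table was 246 and ranged from 20 to 236 when 1 library was left out. It was 61 without a filter, 0 in limma without the trend (2040 genes below an unadjusted p of 0.05), 439 after removing GC, length and level trends, and 41 with the replicate block, which uses replicate number as a term. Same-numbered libraries did not deviate together (correlations 0.040, −0.046 and −0.013), so the numbers were not taken as pairs. Of the 36 respiratory genes, 2 were called lower; the count in limma was 0 without a filter (6 below an unadjusted p of 0.05), 0 without the trend (3 such), 1 after trimmed-mean rescaling (LYRM7), 1 after removing those trends (ATP5MF), 0 with the replicate block (5 such), and 0 to 1 when 1 library was left out. The count called higher was 0, and 0 to 1 when 1 library was left out (ATP5F1D, without knockdown replicate 1). Neither ATP5MF nor LYRM7 changed direction in the 14 alternatives.

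The complex III median of −0.037 ranged from −0.048 to −0.006 over the fits with 1 library left out, and the ATP synthase median of 0.005 from −0.010 to 0.022; the latter was 0.045 after removing those trends. Over the fits with 1 library left out, the change in summed level ran from 0.689% to 1.87% for complex III, from 0.417% to 2.86% for complex IV, from −3.67% to −1.54% for ATP synthase and from 4.3% to 9.59% for cytochrome c; the last was 15% with those trends removed, against 7.4%. CLIC1 kept its fold change of −0.54 without the trend but not the call (adjusted p = 0.0730). Of 21 genes with values given by the rule, 18 kept their sign in all 14 alternatives. The others were near 0: after removing those trends ATP5F1E was at 0.0402, COX6C at 0.0642 and COX7B at 0.0470; COX7B was at 0.0008 after trimmed-mean rescaling and at 0.0009 in TPM without mitochondrially encoded genes. Over the fits with 1 library left out, ATP5F1E ran from −0.0581 to 0.0160, COX6C from −0.0294 to 0.0367 and COX7B from −0.0648 to 0.0557. The cause of these differences was not tested. Leaving out a library also leaves fewer samples to the test. Depth is unknown, so the share of counting error in the spread is too; LYRM7 has the lowest level.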
